A study of Mus musculus with 15 samples.

Results

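The genes described here are *Mthfd2* and 9 other genes of serine synthesis, folate metabolism and the amino acid stress response, namely *Phgdh*, *Psat1*, *Psph*, *Shmt2*, *Aldh1l2*, *Asns*, *Trib3*, *Chac1* and *Atf5*. RNA-Seq read them in the whole aorta of each of 15 male wild-type mice, 10 months old, labelled C57BL/6 and given as C57BL/6J in the study's text, and they were chosen by gene symbol, as 10 of the 24982 symbols in the count tables. *Mthfd2* had itself been chosen from the aortas with DHT, where its difference had among the smallest P values of all genes, so the levels of the 10 genes with DHT are given as a description and without a P value. All mice received Aldo-salt, which is aldosterone at 200 µg/kg/d by osmotic minipump with 0.9% NaCl and 0.2% KCl in the drinking water, for 7 days, starting 2 weeks after surgery. The 3 groups held 5 aortas each. Control mice were sham operated and kept their testes, orchiectomized mice lacked gonadal androgen, and the third group was orchiectomized and carried a pellet of dihydrotestosterone (DHT), an androgen that cannot be converted to estrogen. Mice without Aldo-salt are not analysed here, so every difference is one between mice on Aldo-salt. The source was the whole aorta, so the RNA is a mixture of the cells of the vessel and of tissue attached to it.

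Cells make serine from a glycolytic intermediate through PHGDH, PSAT1 and PSPH, the enzymes of serine synthesis in the order in which they act. In mitochondria SHMT2 moves a carbon from serine to folate, MTHFD2 and its relative MTHFD2L oxidize that folate carbon, MTHFD1L releases it as formate for purine and thymidine synthesis in the cytosol, and ALDH1L2 burns it to carbon dioxide instead. *Mthfd2* is known as an enzyme of embryonic and dividing cells that is low in most adult tissues. When amino acids run short or mitochondria are impaired, the transcription factor ATF4 raises many genes of this group through a DNA element that it binds with C/EBP proteins, and *Asns* (asparagine synthetase), *Trib3* (a pseudokinase), *Chac1* (a glutathione-degrading enzyme) and *Atf5* (a related transcription factor) are classical members of that response.

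The element that ATF4 binds has the core TGATGNAA, and it was searched in RefSeq promoter windows of build GRCm38 (mm10), each of 250 bases before and 50 after a start site. Both strands of the 250 bases before the start site were searched, and the 50 bases after it were not. A window was found for 9 of the 10 genes, all but *Aldh1l2*. In the 250 bases searched, the core was present in 2 of the 9, *Asns* and *Chac1*, and in 3.45% of all 32851 windows (1134 windows). The stretches around these matches are shown because both genes serve below as readouts of the stress response, with the core, read on the strand of the gene, in capitals.
Asns, chr6:7693214-7693243, minus strand, core at -23 to -16: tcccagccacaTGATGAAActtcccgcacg
Chac1, chr2:119351038-119351067, plus strand, core at -193 to -186 on the opposite strand: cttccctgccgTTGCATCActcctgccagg
Positions are counted from the start site, with the base before it as -1. The 250 bases before the start site of *Mthfd2* held no such match. These bases, chr6:83317605-83317854 on the minus strand, are shown because *Mthfd2* shows the largest difference of the 10 genes.
Mthfd2, upstream: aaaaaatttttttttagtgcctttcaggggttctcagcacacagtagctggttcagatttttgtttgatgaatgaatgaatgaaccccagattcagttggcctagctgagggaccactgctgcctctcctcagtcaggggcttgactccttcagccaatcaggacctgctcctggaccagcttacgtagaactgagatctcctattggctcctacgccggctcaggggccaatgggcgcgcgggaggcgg
A match is a string of letters and not a measured binding site, and a window without one says nothing of the factor.

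The libraries held 8268957 to 13816864 reads on genes. Levels are given as CPM, the reads of a gene scaled to a common library size, after TMM normalisation, which corrects for differences in library composition, and 10 reads in a library of median size corresponded to 0.906 CPM. Each of the 10 had enough reads to be tested, as had 14121 genes in all. The fewest reads for any of them in 1 library was 16, for *Chac1*, and the most was 3794, for *Atf5*. The arterial wall was present in every library, since all 6 smooth muscle markers, *Myh11* and *Acta2* among them, were detected in each. Nothing in the labels says more of the 5 aortas of a group than that they were separate samples.

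*Mthfd2* (chromosome 6, 83305691 to 83325908, minus strand) had 214, 261, 214, 305 and 185 reads in the control aortas. In the aortas of orchiectomized mice the counts were 188, 147, 134, 221 and 233, and with DHT they were 681, 638, 435, 309 and 585. As CPM, the values were 19.4, 24.4, 22.3, 21.6 and 16.9 in the controls, 20.2, 13.0, 11.7, 15.2 and 19.0 after orchiectomy, and 58.2, 57.5, 55.8, 38.1 and 60.5 with DHT. All 5 aortas with DHT were therefore above all 10 without it, whereas the control and orchiectomized groups overlapped. The mean was 20.9 ± 2.89 CPM (SD, n = 5) in the controls, 15.8 ± 3.69 after orchiectomy and 54.0 ± 9.04 with DHT. With DHT the mean was 3.41 times that of the orchiectomized mice, a log2 fold change of 1.77 ± 0.17 (SE), and 2.58 times that of the controls, a log2 fold change of 1.37 ± 0.17. Over 22 other ways of running the analysis these log2 values lay between 1.67 and 1.89 and between 1.30 and 1.46.

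Orchiectomy against control was not the contrast by which *Mthfd2* was chosen, but it uses the same control and orchiectomized aortas against which the DHT group was measured, so it is not independent of that choice. Here its level was lower by 0.40 ± 0.17 on the log2 scale, and the difference did not pass the test (edgeR quasi-likelihood test, adjusted P = 0.374, unadjusted P = 0.0286). The log2 value was between -0.53 and -0.24 under every alternative, and passed unadjusted P under 0.01 only when orchiectomized replicate 1 was left out, where it was -0.53. The lowest *Mthfd2* values of all 15 aortas, 11.7, 13.0 and 15.2 CPM, were in orchiectomized mice, and the other 2 of that group, at 19.0 and 20.2, lay inside the control range.

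**Figure D1:**
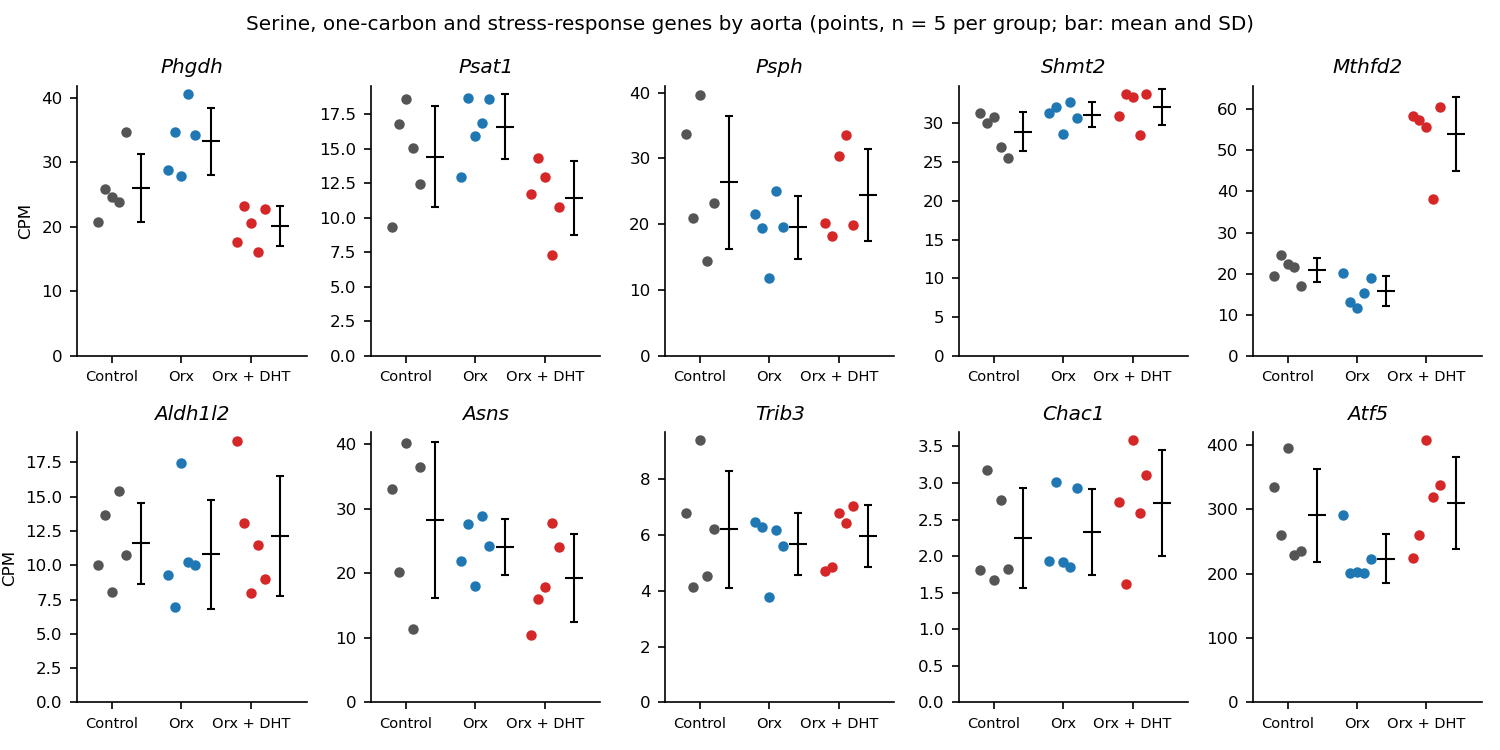
CPM (vertical axes, linear and starting at 0) of the 10 genes in the control, orchiectomized (Orx) and DHT-treated orchiectomized (Orx + DHT) mice; each point is 1 aorta, and the bar beside each group is the mean with its SD (n = 5). The 5 *Mthfd2* values with DHT, 38.1 to 60.5, sit above all others, *Phgdh* is lower with DHT than after orchiectomy alone, and the other 8 genes overlap between all groups.

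The enzyme of the entry step of serine synthesis showed another order. *Phgdh* was at 20.7, 25.9, 24.6, 23.8 and 34.8 CPM in the controls, at 28.8, 34.7, 27.9, 40.6 and 34.3 after orchiectomy, and at 17.7, 23.2, 20.6, 16.2 and 22.8 with DHT. Each of the 5 orchiectomized aortas was above each of the 5 with DHT, and the controls lay between and overlapped both. The log2 fold change with DHT was -0.73 ± 0.15 against orchiectomized mice and -0.37 ± 0.15 against controls. Orchiectomy alone was accompanied by a value higher by 0.36 ± 0.15, which did not pass the test (adjusted P = 0.379, unadjusted P = 0.0314) unless control replicate 5, the highest control, was left out, where it was 0.48 and passed unadjusted P under 0.01.

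*Psat1*, the aminotransferase of the next step, was ordered like *Phgdh* in its group means but with overlap. Its mean was 14.4 ± 3.64 CPM in the controls, 16.6 ± 2.36 after orchiectomy and 11.4 ± 2.67 with DHT (SD, n = 5 each), with a log2 fold change of -0.54 ± 0.20 with DHT against orchiectomized mice and of 0.20 ± 0.20 for orchiectomy against controls (adjusted P = 0.704). *Psph*, the phosphatase that completes serine synthesis, did not have that order. It was at 26.4 ± 10.1 CPM in controls, 19.5 ± 4.84 after orchiectomy and 24.5 ± 6.98 with DHT, and its orchiectomy difference of -0.43 ± 0.27 had an adjusted P of 0.521. On opposite strands, exons of *Psph* and *Cct6a* share 10.4% of the exon bases of *Psph*, and since it is not stated whether reads were counted by strand, a part of these reads may belong to the neighbour.

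In the mitochondrial folate pathway, *Shmt2* had the smallest standard errors of the 10 genes. Its values ran from 25.6 to 31.3 CPM in the controls, from 28.6 to 32.7 after orchiectomy and from 28.5 to 33.8 with DHT. The log2 fold changes were 0.10 ± 0.08 for orchiectomy (adjusted P = 0.627), 0.04 ± 0.08 for DHT against orchiectomized mice and 0.15 ± 0.08 for DHT against controls. *Aldh1l2* ranged from 8.03 to 15.4 CPM in controls, from 6.99 to 17.5 after orchiectomy and from 7.95 to 19.1 with DHT, and its 3 log2 fold changes were -0.10 ± 0.27 (adjusted P = 0.907), 0.17 ± 0.27 and 0.07 ± 0.27. This gene shares 14.1% of its exon bases with *D10Wsu102e* on the other strand, so its counts carry the same reservation.

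None of the 4 stress-response genes separated the aortas with DHT from the rest. *Asns* was at 33.1, 20.2, 40.3, 11.4 and 36.4 CPM in controls, at 21.9, 27.6, 18.0, 28.9 and 24.2 after orchiectomy, and at 10.4, 16.0, 17.9, 27.8 and 24.1 with DHT. The aortas with DHT thus had the lowest mean of *Asns*, 19.3 ± 6.82 against 28.3 ± 12.1 in controls, with a log2 fold change of -0.55 ± 0.31 against controls and of -0.33 ± 0.31 against orchiectomized mice. Orchiectomy alone gave -0.23 ± 0.31 (adjusted P = 0.801). *Trib3* was between 3.76 and 9.38 CPM in all 15 aortas, and its 3 log2 fold changes were -0.13 ± 0.23 (adjusted P = 0.858), 0.07 ± 0.23 and -0.06 ± 0.23 for orchiectomy, for DHT against orchiectomized mice and for DHT against controls. *Chac1* was the least abundant, at 1.62 to 3.59 CPM, or 16 to 39 reads, and its log2 fold changes were 0.05 ± 0.27 (adjusted P = 0.957), 0.22 ± 0.27 and 0.27 ± 0.27 in the same order. With standard errors of 0.27, changes of *Chac1* of about that size in either direction remain possible.

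*Atf5* was the most abundant of the group. It had a mean of 291 ± 72.0 CPM in controls, 223 ± 38.5 after orchiectomy and 310 ± 71.4 with DHT, and the ranges overlapped in all 3 comparisons. Its log2 fold change was -0.38 ± 0.19 for orchiectomy (adjusted P = 0.433), 0.47 ± 0.19 for DHT against orchiectomized mice and 0.09 ± 0.19 for DHT against controls. As for *Mthfd2*, the orchiectomized mean was the lowest. The order of the DHT and control means of *Atf5* was not settled, since their difference ran from -0.035 to 0.219 over the 22 alternatives. Exons of *Il4i1* and *Nup62* on the other strand overlap 4.11% of its exon bases.

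For orchiectomy against control the 10 genes were tested and set beside all genes, with the same aortas shared. A gene was called at an unadjusted P under 0.01, the threshold the study used, and calls at an adjusted P under 0.05 are given beside it. For orchiectomy against control 0 of the 10 were called, against 3.22% of the 14121 genes tested (2.08% higher and 1.13% lower). At an unadjusted P under 0.05 edgeR found 2 of the 10, DESeq2 3 and limma voom 1, beside 1692, 1745 (12.4%) and 1792 (12.7%) of the 14121 genes. At an adjusted P under 0.05 edgeR found 0 of the 10 and 0% of all genes, where DESeq2 found 131 genes and limma voom 1, none of them among the 10. In that comparison 0 of the 10 had groups that did not overlap, against 1.51% of all genes. The median log2 fold change of the 10 genes was -0.12, beside 0.04 for all genes tested.

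With DHT the choice of the genes used the same aortas, so neither P values nor calls of the 10 genes are given there. *Mthfd2* and *Phgdh* were the 2 of the 10 with groups that did not overlap between DHT and orchiectomized mice, as were those of 6.43% of all genes, and *Mthfd2* was the 1 without overlap between DHT and controls, beside 3.58% of all genes. Nothing is read from these counts. The medians of the 10 genes were 0.12 and 0.0035 on the log2 scale, beside -0.02 and -0.0029 for all genes. Both comparisons share the 5 aortas with DHT.

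**Figure D2:**
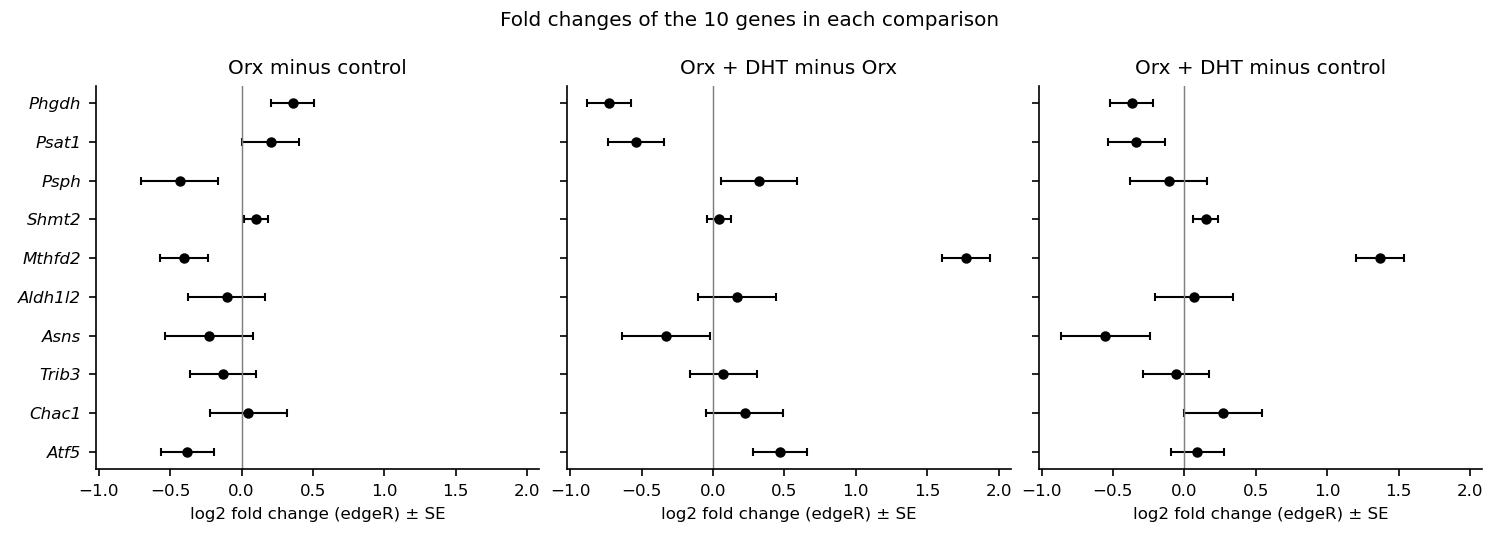
Log2 fold change (horizontal axes) of each of the 10 genes with its standard error (bars) in the 3 comparisons, from the edgeR fit of all 15 libraries. *Mthfd2* stands at 1.77 and 1.37 in the comparisons with DHT and at -0.40 for orchiectomy, and *Phgdh* at -0.73, -0.37 and 0.36.

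Because depth cancels in the ratio of 2 counts from the same library, the balance of the pathway can also be given within each aorta. *Mthfd2* had 0.618 to 0.813 reads for each read of *Shmt2* in the controls, 0.405 to 0.646 after orchiectomy and 1.34 to 1.89 with DHT, with means of 0.724, 0.509 and 1.68. Its ratio to *Phgdh* was 0.486 to 0.942 in the controls, 0.374 to 0.701 after orchiectomy and 2.36 to 3.29 with DHT. In both ratios every aorta with DHT was above every other aorta, and the control and orchiectomized groups overlapped. Both use the *Mthfd2* counts by which that gene was chosen, so their separation with DHT restates that choice and is no separate result. *Phgdh*, in the second ratio, was itself lower with DHT than after orchiectomy. The ratio of *Psph* to *Phgdh*, the last enzyme of serine synthesis to the entry enzyme, averaged 1.06 ± 0.510 in the controls, 0.585 ± 0.116 after orchiectomy and 1.27 ± 0.523 with DHT (SD, n = 5 each).

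Per kilobase of annotated exon, the scale on which levels of different genes can be set side by side, *Atf5* was far the highest in the controls, at 146 CPM per kb. It was followed by *Phgdh* (10.4 ± 2.12), *Asns* (10.3 ± 4.41) and *Shmt2* (9.30 ± 0.818), which did not differ beyond their spread, then by *Psph* (6.10 ± 2.34) and *Mthfd2* (6.00 ± 0.830), which did not differ either, and by *Psat1* at 3.39, *Trib3* at 2.92, *Aldh1l2* at 1.55 and *Chac1* at 1.37. With DHT the level of *Mthfd2* was 15.5 ± 2.59 CPM per kb, which placed it at rank 2 of the 10 where it had been at rank 6 in the controls and at rank 5 after orchiectomy.

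None of the 3 paralogs of *Mthfd2* was called higher with DHT. *Mthfd2l*, the mitochondrial enzyme of the same reaction that adult tissues express, had a mean of 13.1 ± 1.17 CPM in controls, 12.03 ± 2.48 after orchiectomy and 13.2 ± 1.71 with DHT (SD, n = 5 each), and its log2 fold change with DHT against orchiectomized mice was 0.14 ± 0.14 (edgeR, adjusted P = 0.627). *Mthfd1*, the cytosolic enzyme that joins several reactions of the pathway in a single protein, was at 38.5 ± 9.72, 47.5 ± 4.93 and 39.1 ± 4.84 CPM, with 0.30 ± 0.16 for orchiectomy (adjusted P = 0.454) and -0.28 ± 0.16 for DHT against orchiectomized mice (adjusted P = 0.325).

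*Mthfd1l*, which acts directly after *Mthfd2* in the mitochondrion, was called when orchiectomized mice were set against controls. It was at 4.35, 6.46, 4.90, 4.46 and 3.65 CPM in the controls, at 9.26, 10.0, 6.82, 8.32 and 10.8 after orchiectomy, and at 6.16, 7.30, 4.999, 5.31 and 5.89 with DHT. The control and orchiectomized groups did not overlap, and the log2 fold change was 0.92 ± 0.18 (edgeR, unadjusted P = 0.00013, adjusted P = 0.131), called in all 22 alternatives. The adjusted P was 0.00197 with DESeq2 and 0.0578 with limma voom, so that its side of 0.05 depended on the tool. With DHT it was lower than after orchiectomy alone by -0.60 ± 0.18 (adjusted P = 0.0682 with edgeR, 0.0338 with DESeq2 and 0.0455 with limma voom). That call was lost without orchiectomized replicate 2 (log2 -0.55, unadjusted P = 0.0108) or 5 (-0.53, 0.0149), and without replicate 3 (-0.53, 0.0144), 4 (-0.55, 0.0131) or 5 (-0.57, 0.0107) of the DHT group. Set against each other, *Mthfd2* had 3.78 to 4.84 reads for each read of *Mthfd1l* in the controls, 1.30 to 2.19 after orchiectomy and 7.19 to 11.2 with DHT, and none of the 3 groups overlapped another. This ratio was chosen after the values of *Mthfd1l* had been seen.

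**Figure D3:**
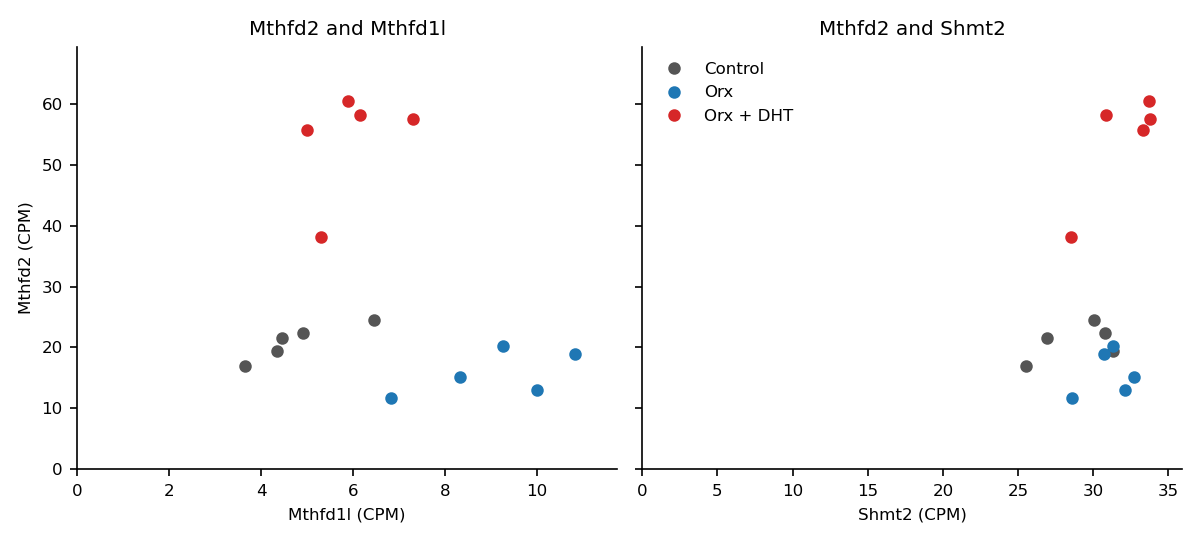
*Mthfd2* (vertical axes, CPM) against *Mthfd1l* (left) and *Shmt2* (right, horizontal axes, CPM), each point 1 aorta and each color a group of 5. In the left panel the orchiectomized mice lie to the right of the controls, from 6.82 to 10.8 CPM of *Mthfd1l*, and the mice with DHT lie above both; in the right panel the groups overlap in *Shmt2*, and the mice with DHT lie above the others in *Mthfd2*, where controls and orchiectomized mice overlap.

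Markers of several immune cells were higher in the same group as *Mthfd1l*. Of the tested markers, 4 of 5 for T cells, 5 of 5 for B cells, *Cd79a* and *Ms4a1* among them, and 2 of 2 for neutrophils were called higher after orchiectomy by edgeR, where 2.08% of all genes were. DESeq2 called as many, and limma voom 2, 2 and 2. At an adjusted P under 0.05 edgeR and limma voom found 0 of them, and DESeq2 3, 5 and 2. The summed B cell markers ranged from 3.28 to 7.93 CPM in controls, from 6.24 to 149 after orchiectomy and from 2.57 to 10.5 with DHT, and those of T cells from 3.47 to 12.8, from 5.81 to 58.0 and from 2.82 to 5.41. Summed neutrophil markers were at 0.562 to 2.05 CPM in controls, 4.47 to 28.5 after orchiectomy and 1.80 to 11.3 with DHT, and up to 2 of them were at 0 in single libraries of controls and of the DHT group. Only 2 of the 5 listed neutrophil markers had enough reads to be tested. Their calls carry little weight, since a marker can pass that filter through the group where it is high. Of 6 proliferating cell markers, whose sums are given below, 2 were also called higher after orchiectomy. The part of these cells in the difference was not tested.

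The wider pathway was read from lists of other genes, 129 of which were tested. For orchiectomy against control 5 of them were called (3.88%), beside 3.22% of all genes. For DHT against orchiectomized mice 13 were called (10.1%), beside 9.72% of all genes, and of these 1 was higher and 12 were lower, where 2.46% of all genes were higher and 7.27% lower. For DHT against control 5 were called (3.88%), 4 higher and 1 lower, beside 3.53% of all genes (1.52% higher and 2.01% lower). At an adjusted P under 0.05 edgeR found 5 of the 129 for DHT against orchiectomized mice, beside 4.72% of all genes, and 0 for DHT against control, beside 0.262%. For DHT against control DESeq2 found 1 in cytosolic folate and methionine metabolism, 2 in the ATF4 program and 1 in purine synthesis, beside 230 of all genes. There limma voom found 2 in the ATF4 program and 2 in purine synthesis, beside 156 of all genes. In 11 tested genes of mitochondrial folate metabolism the only gene edgeR called was *Mthfd1l*, described above, where DESeq2 called 2 for orchiectomy, and the median log2 fold change was between -0.04 and 0.01 in the 3 comparisons.

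Among 14 genes of cytosolic folate and methionine metabolism 1 was called higher and 1 lower after orchiectomy, 2 were lower with DHT than after orchiectomy, and 1 was higher with DHT than in controls. *Cbs*, the entry enzyme of transsulfuration, was higher after orchiectomy (4.52 ± 0.882 CPM against 2.32 ± 0.755, log2 fold change 0.95 ± 0.25, adjusted P = 0.244) and with DHT (4.25 ± 0.779 CPM, 0.87 ± 0.25 against controls, adjusted P = 0.192), each at an unadjusted P under 0.01. These values are from edgeR. In each of these 2 comparisons DESeq2 found 1 gene of the list at an adjusted P under 0.05, and limma voom 0. *Cth*, the enzyme after it, had 1.76 ± 0.509 CPM with DHT and 3.31 ± 1.11 after orchiectomy, a log2 fold change of -0.90 ± 0.27 (adjusted P = 0.0665), and was called in 16 of 22 alternatives. *Tyms*, thymidylate synthase, was lower with DHT than after orchiectomy by -0.47 ± 0.15 (adjusted P = 0.0881) and called in 8 of 22. Of 12 genes that transport or use serine, glycine and asparagine, *Sptlc2*, a subunit of the enzyme that joins serine to fatty acid, fell with DHT against orchiectomized mice, by 0.52 ± 0.13 on the log2 scale (adjusted P = 0.0389).

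The wider ATF4 program gave no common direction. *Atf4* itself was at 204 ± 39.7 CPM in controls, 195 ± 42.6 after orchiectomy and 218 ± 44.6 with DHT, and its largest log2 difference was 0.16 ± 0.18 (adjusted P = 0.655). *Ddit3*, which encodes the stress factor CHOP, was at 31.7 ± 3.98, 29.1 ± 6.36 and 39.4 ± 7.35 CPM, with 0.44 ± 0.17 for DHT against orchiectomized mice (adjusted P = 0.140). Of 27 tested genes of the program, 0 were called for orchiectomy (3 at an unadjusted P under 0.05, and 0 called by DESeq2 and 1 by limma voom), 3 for DHT against orchiectomized mice and 2 for DHT against controls. *Slc7a5*, the large neutral amino acid transporter, was at 13.0 to 18.8 CPM after orchiectomy, 12.6 to 17.8 in controls and 20.3 to 33.1 with DHT. Its groups with and without DHT did not overlap, and it rose by 0.70 ± 0.15 against orchiectomized mice (adjusted P = 0.0197), while against controls the difference was 0.67 ± 0.15 (adjusted P = 0.0811). *Pck2*, a mitochondrial enzyme of gluconeogenesis, was called higher with DHT against controls (0.49 ± 0.13, adjusted P = 0.178). *Gpt2* (-0.55 ± 0.18, adjusted P = 0.0854), a mitochondrial alanine aminotransferase, and *Jdp2* (-0.34 ± 0.10, adjusted P = 0.0773), a leucine zipper factor, were called lower with DHT against orchiectomized mice, in 15 and 12 of 22 alternatives.

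In lists of genes that use the products of the pathway, or answer to other kinds of stress, edgeR called between 0 and 3 genes per list and comparison. Of 19 transfer RNA synthetases, *Nars* was lower with DHT than after orchiectomy (-0.28 ± 0.08, adjusted P = 0.0536) and *Qars* higher after orchiectomy (0.21 ± 0.07, adjusted P = 0.308), the latter in 3 of 22 alternatives. Of 13 genes of purine synthesis, *Ppat*, the enzyme of its committed step, fell with DHT against orchiectomized mice by 0.54 ± 0.14 on the log2 scale (adjusted P = 0.0391), where limma voom called 4 of the 13, and against controls *Prps2* was higher by 0.63 ± 0.16 (adjusted P = 0.138) and *Gmps* lower by -0.45 ± 0.13 (adjusted P = 0.190). All 14 genes of the ATF6 and XBP1 branches of endoplasmic reticulum stress had a log2 fold change below 0 with DHT against orchiectomized mice, with a median of -0.25. The edgeR test called 3 of the 14, DESeq2 5 and limma voom 7, beside 9.72% of all genes with edgeR, and at an adjusted P under 0.05 they found 1, 3 and 2. Of the 3, *Dnajb9* fell by 0.40 ± 0.09 (adjusted P = 0.0247). The other two, *Dnajc3* and *Pdia4*, had adjusted P values of 0.0766 and 0.0739 and were called in 13 and 14 of 22 alternatives. Markers of T cells, B cells, macrophages, fibroblasts and endothelium were also called lower in this comparison, with the counts given below, and their part in the list was not tested.

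None of the 10 genes of mitochondrial protein stress was called in any comparison (edgeR). All 10 had a log2 fold change below 0 after orchiectomy, with a median of -0.41, of which 3 were at an unadjusted P under 0.05, and DESeq2 and limma voom called 1 each. The sum of brown adipocyte markers, given below, was also lower in that group on average, and its part in this was not tested. Of 9 regulators that have been tied to *Mthfd2*, *Myc* fell with DHT against orchiectomized mice by 0.96 ± 0.24 on the log2 scale (adjusted P = 0.0364), opposite in direction to *Mthfd2*, with 3.09 to 7.39 CPM against 7.78 to 13.7. *Mtor* was lower after orchiectomy by -0.78 ± 0.26 (adjusted P = 0.308), a call made in 14 of 22 alternatives.

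The genes whose levels over the 15 aortas were most like those of *Mthfd2* came from outside the pathway. Likeness was measured as the root mean square difference of log2 CPM after each gene was centred on its own mean, over all 14120 other genes tested, and it was 0.315 for *Il17b*, 0.344 for *Mt2*, 0.351 for *Carmn*, 0.359 for *Angpt4* and 0.374 for *Adamts14*. *Il17b* encodes a cytokine, *Mt2* a metallothionein, *Carmn* a long noncoding RNA of smooth muscle, *Angpt4* an angiopoietin and *Adamts14* a procollagen peptidase. *Mt2* was at 34.7 to 69.6 CPM in controls, 25.3 to 57.3 after orchiectomy and 83.7 to 157 with DHT, and *Carmn* at 35.9 to 86.3, 34.4 to 47.7 and 98.8 to 149. These 5 were chosen for their likeness to *Mthfd2* over all 15 aortas, so their higher values with DHT follow from that choice. Within the group of 10, *Atf5* was the closest to *Mthfd2*, with 0.686 and rank 950, followed by *Shmt2* at rank 2722 and *Chac1* at 2793, whereas *Phgdh* was at 11797 and *Asns* at 12145.

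**Figure D4:**
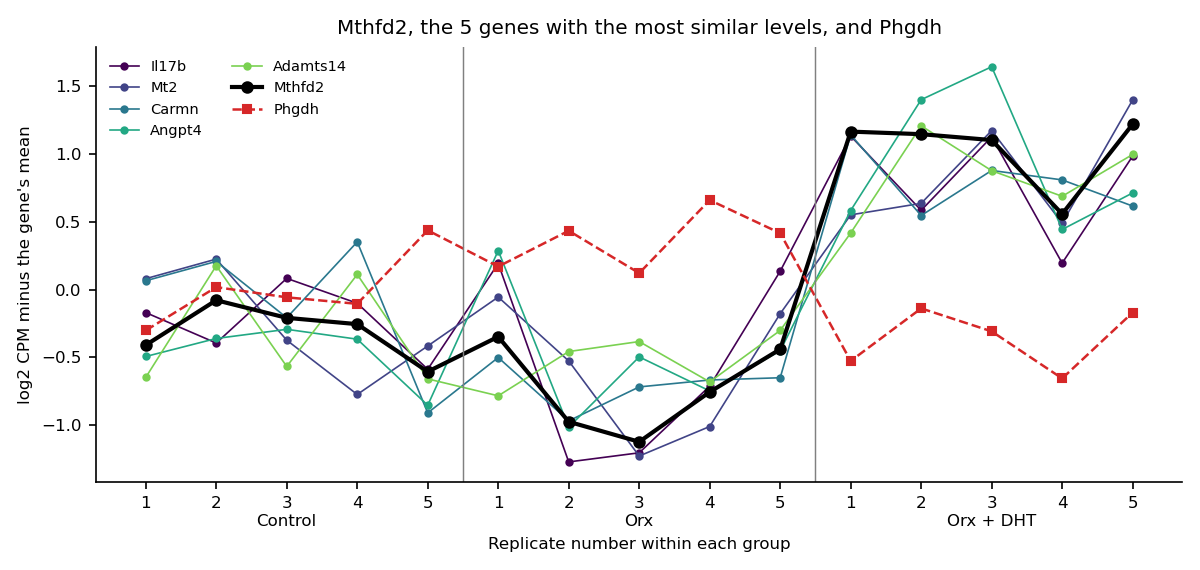
Log2 CPM minus the mean of each gene (vertical axis) in the 15 aortas (horizontal axis, in order of group and replicate number) for *Mthfd2*, the 5 genes nearest to it and *Phgdh*; lines join points to guide the eye and the replicates have no order. *Mthfd2* and the 5 neighbours, which were chosen for the likeness of their profiles, are higher in all 5 aortas with DHT, and *Phgdh* is below its own mean in each of these.

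Markers of several cell types also differed between the groups that differed in *Mthfd2*, and in RNA of whole aortas fewer cells of a type and less RNA per cell cannot be told apart. The summed CPM of 6 smooth muscle markers ranged from 13507 to 19455 in controls, from 9941 to 19524 after orchiectomy and from 18725 to 23430 with DHT, with 0 of the 6 called in any comparison by edgeR, although 5 of the 6 were at an unadjusted P under 0.05 for DHT against orchiectomized mice, and DESeq2 called 2. The 5 mesothelial markers, *Upk3b* and *Msln* among them, were all called lower with DHT in both comparisons, with sums of 30.4 to 85.7, 42.2 to 172 and 7.31 to 20.3 CPM. Of 5 fibroblast markers 2 were called lower with DHT than after orchiectomy, and of 5 endothelial markers 3. Against controls 1 fibroblast and 3 endothelial markers were called lower with DHT. The proliferating cell markers, with *Mki67* and *Top2a*, had sums of 20.5 to 38.4 CPM in controls, 40.7 to 74.3 after orchiectomy and 21.0 to 28.6 with DHT, and 5 of 6 were called lower with DHT than after orchiectomy. Markers of skeletal muscle, with 3 of 6 called higher with DHT than after orchiectomy, had sums of 34.3 to 432 CPM in controls, 7.42 to 179 after orchiectomy and 70.0 to 410 with DHT, and limma voom called 1. None of these markers was at 0 in any library apart from *Myh2*, absent from 2. Immune markers were lower with DHT than after orchiectomy as well, 5 of 5 for T cells, 5 of 5 for B cells, 2 of 2 for neutrophils and 2 of 5 for macrophages by edgeR, where limma voom called 3, 2, 0 and 0. Both tested neutrophil markers were called higher with DHT than in controls by edgeR, and 0 of them by limma voom. The limit given above for the 2 neutrophil markers holds here as well. The macrophage sums were 104 to 335 CPM in controls, 184 to 352 after orchiectomy and 82.6 to 200.1 with DHT. The part of all these cells in the difference of *Mthfd2* was not tested.

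Markers of brown adipocytes, a cell type known from the fat around the mouse aorta, varied widely within the groups. All 10 genes were set beside these markers, and some, *Asns* and *Psph* among them, had their order in full or in part in some groups and not in others. The sum of 5 of the markers, with *Ucp1* and *Cidea*, was 4249, 2028, 4454, 1156 and 2853 CPM in the controls, 2077, 1028, 1244, 2073 and 1645 after orchiectomy, and 1462, 1525, 2614, 4240 and 3201 with DHT. All 5 markers were found in every library. They did not move as 1, since edgeR called 1 of the 5 lower with DHT than after orchiectomy while their median log2 fold change there was 0.60, and 1 was called lower after orchiectomy and 1 with DHT against controls. In the controls *Psph* had exactly the order of this sum, which it had neither after orchiectomy nor with DHT, and *Asns* had its 3 highest values, 33.1, 40.3 and 36.4 CPM, in the same 3 aortas. With DHT *Asns* had exactly the order of the sum, from 10.4 CPM in the aorta with 1462 to 27.8 in the aorta with 4240, and after orchiectomy it did not. *Trib3* also had its 3 highest values in the 3 aortas with the highest sums, in the controls and with DHT. The same held for *Atf5* with DHT and for *Psph* after orchiectomy. *Mthfd2* had the exact order of the sum in no group. With DHT it was at 58.2 CPM with the lowest sum and at 38.1 with the highest. After orchiectomy its 3 highest values, 20.2, 15.2 and 19.0 CPM, were in the 3 aortas with the highest sums. These orders are a description of 5 aortas each that share depth and dissection, and the part of brown fat in them was not tested.

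**Figure D5:**
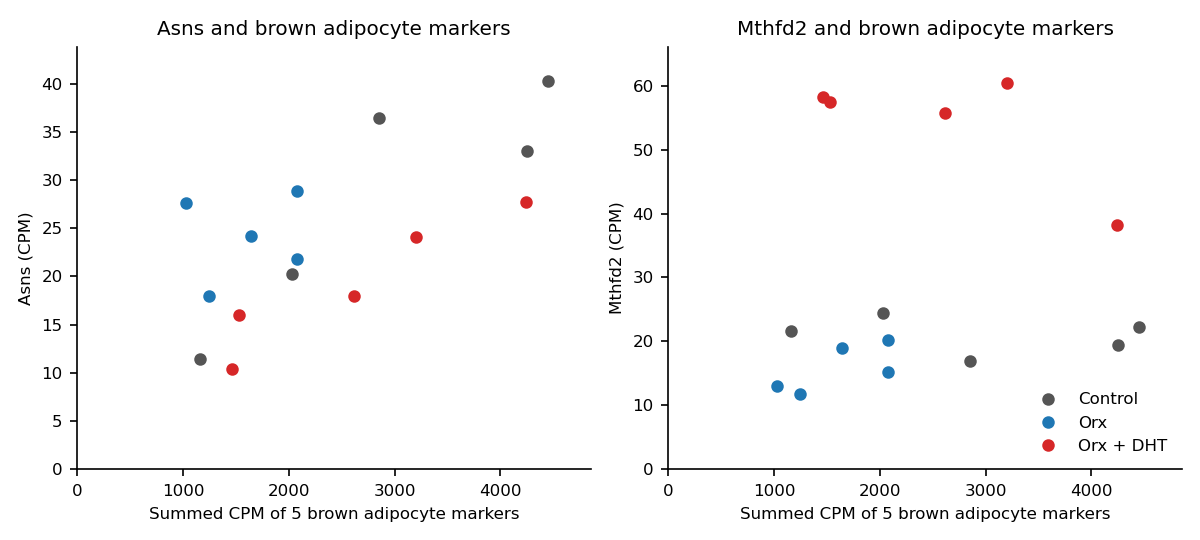
*Asns* (left) and *Mthfd2* (right, vertical axes, CPM) against the summed CPM of 5 brown adipocyte markers (horizontal axes), each point 1 aorta and each color a group of 5. *Asns* is lowest where the marker sum is low in the control and DHT groups, and the 5 *Mthfd2* values with DHT are at 38.1 CPM or more across marker sums from 1462 to 4240.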

How the data were processed

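For each of 15 poly(A)-enriched aortic libraries the authors deposited unnormalized counts of reads, 1 row a gene symbol. The submitters' processing notes name STAR, Cufflinks, DESeq2 and build mm10. The counting program, its annotation and its strand setting are not given in the sources used here. Rows for reads on no gene (6.26% to 14.4%) or on more than 1 gene (1.34% to 1.97%) were left out. The 3 groups were compared with edgeR 4.0.16 (R 4.3.3) in 1 fit of all 15 libraries, with filterByExpr (minimum count 10), TMM normalisation and the quasi-likelihood test, and P values were adjusted by Benjamini-Hochberg over 14121 genes. A gene was called at an unadjusted P under 0.01. P values measure the spread between these samples only. DESeq2 1.42.0 and limma 3.58.1 served as alternatives, beside RLE size factors, other filters, 2-group fits and leaving out each library. Scripts were tested on simulated data. No libraries in a group agreed within sampling noise (lowest chi-square per degree of freedom 11.3). Exon lengths and positions came from GENCODE on mm10, and promoter windows from RefSeq on GRCm38. The 10 genes and all lists were chosen with earlier results of these data known. Named genes were the 10, at most 3 called genes per list and comparison, *Mthfd2l*, *Mthfd1*, *Mthfd1l*, *Atf4*, *Ddit3*, the 5 genes nearest to *Mthfd2* and at most 2 markers per cell type. Of the listed genes, *Dmgdh*, *Slc7a11*, *Slc7a3* and *Fgf21* did not pass the filter, and *Mars1* was not matched by its symbol. Some listed genes count in their lists and are not reported here by name. Protein alignments of the paralogs were not made.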

Additional observations from a re-analysis of the deposited data

Results flagged for a closer look

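Of 30 sets of 5 values (10 genes in 3 groups), 2 had a sample far from the other 4 by Dixon's test, which chance does in about 1 of 20. *Mthfd2* in replicate 4 of the DHT group was at 38.1 CPM, below the other 4 of that group but above all 10 aortas without DHT. *Atf5* in replicate 1 of the orchiectomized group was at 291 CPM, above the other 4 of that group.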

How the results depend on the processing

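Over 22 alternatives *Mthfd2* kept its direction in all 3 comparisons. Its orchiectomy value ran from -0.53 to -0.34 on the log2 scale when single libraries were left out, and the value -0.53, without orchiectomized replicate 1, passed the threshold. For orchiectomy the count of called genes moved from 454 to 752 with all genes of at least 1 count, to 297 with only the 2 groups compared and to 0 at an adjusted P under 0.05, and lay between 252 (without control replicate 1) and 716 (without control replicate 4) when single libraries were left out. For DHT against orchiectomized mice 1373 genes became 666 at an adjusted P under 0.05, and for DHT against controls 498 became 37, or 992 with limma voom at the unadjusted threshold, with 283 (without control replicate 5) to 681 (without orchiectomized replicate 2) when single libraries were left out. At an adjusted P under 0.05 DESeq2 and limma voom found 1285 and 526 genes for DHT against orchiectomized mice, and 230 and 156 for DHT against controls. Of the 10 genes, 0 to 1 were called for orchiectomy when single libraries were left out. *Chac1* turned from 0.05 to -0.00023 for orchiectomy with all genes of at least 1 count, and when single libraries were left out it ran from -0.073 to 0.20, *Aldh1l2* from -0.37 to 0.021 and *Trib3* from -0.25 to 0.031. The cause of these shifts was not tested.

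Genes called by edgeR in any comparison, and their range without single libraries, were 1 (1 to 2) for mitochondrial folate, 4 (2 to 4) for cytosolic folate, 1 (1 to 4) for serine transport, 4 (2 to 5) for the ATF4 program, 2 (0 to 3) for transfer RNA synthetases, 3 (2 to 4) for purine synthesis, 3 (1 to 4) for endoplasmic reticulum stress, 0 (0 to 3, with 3 without control replicate 4) for mitochondrial protein stress and 2 (1 to 3) for the regulators. At an adjusted P under 0.05 with edgeR they were 0 for both folate lists and the synthetases, and 1 each for serine transport, the ATF4 program, purine synthesis, endoplasmic reticulum stress and the regulators.

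With the replicate number as a block, 285 genes were called for orchiectomy against 454 without, and 0 of the 10 genes were called for orchiectomy in either. The numbers did not pair the libraries, since 5 of 15 pairs correlated above 0.1 (range -0.466 to 0.463) and 3 libraries correlated best with their own number.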
